A study of Mus musculus with 9 samples.

Results

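MHC class II molecules are surface proteins that show peptides from taken-up protein to CD4+ T cells. Each is a heterodimer of an alpha and a beta chain, is assembled on the invariant chain and is loaded with peptide in endosomes by an H2-M heterodimer. In mice they are made mainly by B cells, dendritic cells and macrophages, and mouse T cells are known for making little or none of them, so that in splenic T cell preparations their mRNA is commonly read as a sign of other cells. The 7 genes described here are H2-Aa and H2-Ab1, which encode the chains of the I-A molecule, H2-Eb1, the beta chain of I-E, H2-DMa and H2-DMb1, the chains of H2-M, Cd74, the invariant chain, and Ciita, the transcriptional coactivator that switches the others on. They were chosen by name as known presentation genes, and all 7 were found among the 49671 genes of the count table.

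Spleens of female F1 mus x cast mice gave the CD3+ T cells. Their mothers were C57BL/6 with a heterozygous Xist deletion and their fathers M. m. castaneous, a cross made to skew X inactivation. There were 3 groups of 3 libraries. The inhibitor group spent 48 hours with anti-CD3 bound to the plate (1 µg/ml), anti-CD28 in solution (10 µg/ml) and 2.5 µM IMD-0354, which inhibits IKK-beta, a kinase that activates NF-kB; the stimulated group had the same culture with the antibodies alone; and the unstimulated group was taken into TRIzol straight after column enrichment. The labels name no vehicle and no culture without stimulation, and give neither the age of the mice, nor whether animals were pooled, nor which offspring carried the Xist deletion, so culture and stimulation cannot be told apart here. The cells were enriched on columns and not sorted. As to the labelled cell type, the 10 T cell markers summed to between 1491 and 2314 CPM in every library. Trac, the constant region of the T cell receptor alpha chain, was at 278 ± 12.3 CPM in inhibitor, 279 ± 4.78 in stimulated and 281 ± 57.3 in unstimulated libraries (SD, n = 3 each). Single markers could differ more, with Cd3e at 389 ± 28.9, 194 ± 4.12 and 349 ± 86.6 CPM in the same order. Cd2 was at 241 ± 16.8, 365 ± 44.8 and 210.4 ± 34.7 CPM. CPM are counts scaled to a common library size, with TMM factors.

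Total counts ranged from 34009988 to 56221174 per library. The 7 genes together took 0.0209% to 0.0255% of the counts of the inhibitor libraries, 0.00983% to 0.0110% of the stimulated and 0.112% to 0.213% of the unstimulated libraries. The number of genes detected was 30106 in inhibitor library 1 and 20547 to 23223 elsewhere. Its levels of the 7 genes lay near those of the other inhibitor libraries, as given below. The labels call the libraries biological replicates but do not tie them to different mice, and the p-values below therefore reflect how much these libraries scatter, part of which may be technical.

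H2-DMa, H2-DMb1, H2-Ab1, H2-Aa and H2-Eb1 lie in this order within the class II region of chromosome 17, between 34119541 and 34316674 on mm10, H2-Aa on the minus strand and the others on the plus strand. Ciita lies on chromosome 16 (10480059 to 10528418, plus strand). Promoters of class II genes are known for a shared module of an X box, bound by the RFX complex, and a Y box, bound by NF-Y, on which the CIITA protein docks. RefSeq start-site windows (GRCm38.p6, 250 bases before to 50 after the annotated start) were at hand for 4 of the 7 genes. They are printed 5′ to 3′ on the gene's strand because these genes differed in how far they changed, with matches to CTNGNAAC, a pattern written after reading these windows to cover their X boxes, and to the Y box core ATTGG in capitals on either strand. The window of H2-Aa is chr17:34287774-34288073 (minus strand), that of H2-Eb1 chr17:34305617-34305916, that of H2-DMb1 chr17:34152941-34153240 and the first of 2 for H2-DMa chr17:34122582-34122881 (all plus strand).
H2-Aa: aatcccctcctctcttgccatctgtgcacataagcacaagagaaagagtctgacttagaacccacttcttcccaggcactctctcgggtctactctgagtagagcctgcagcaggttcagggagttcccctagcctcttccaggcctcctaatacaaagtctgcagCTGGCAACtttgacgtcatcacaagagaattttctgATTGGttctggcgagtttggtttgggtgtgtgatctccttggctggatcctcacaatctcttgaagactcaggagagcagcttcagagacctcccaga
H2-Eb1: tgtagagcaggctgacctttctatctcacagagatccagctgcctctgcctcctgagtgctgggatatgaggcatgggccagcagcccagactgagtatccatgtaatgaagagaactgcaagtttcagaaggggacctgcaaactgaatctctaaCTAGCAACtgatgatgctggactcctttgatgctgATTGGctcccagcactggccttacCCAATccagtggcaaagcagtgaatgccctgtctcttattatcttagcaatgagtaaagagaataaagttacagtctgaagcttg
H2-DMb1: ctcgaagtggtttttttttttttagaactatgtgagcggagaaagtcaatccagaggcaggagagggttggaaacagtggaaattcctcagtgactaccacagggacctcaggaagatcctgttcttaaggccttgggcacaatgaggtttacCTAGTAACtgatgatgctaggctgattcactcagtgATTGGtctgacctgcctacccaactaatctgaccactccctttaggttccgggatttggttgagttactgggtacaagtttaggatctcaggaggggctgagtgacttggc
H2-DMa: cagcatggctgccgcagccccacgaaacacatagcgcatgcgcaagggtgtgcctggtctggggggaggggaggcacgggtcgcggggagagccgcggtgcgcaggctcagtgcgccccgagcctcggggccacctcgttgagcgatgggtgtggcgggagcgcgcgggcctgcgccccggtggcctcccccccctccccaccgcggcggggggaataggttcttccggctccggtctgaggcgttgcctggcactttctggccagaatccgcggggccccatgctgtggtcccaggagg

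In H2-Aa the X pattern began 84 bases before the start and ATTGG 48 bases before it, with 28 bases between them. In H2-Eb1 the distances were 94 and 59 with 27 bases between, and in H2-DMb1 97 and 61 with 28 between. The printed window of H2-DMa held neither pattern, and its other window held ATTGG alone. Neither window reaches the coding transcripts of H2-DMa that begin at 34135628 and 34135654, and the sequence before those starts was not searched. Among 32851 such windows of all genes 13.2% held the X pattern, 37.4% held ATTGG and 0.317% held both on the same strand, the X pattern first, with 15 to 40 bases between. The pattern was fitted to these windows, so its presence in H2-Aa, H2-Eb1 and H2-DMb1 is no result. A match of letters describes the window and does not show that a factor bound there.

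Cd74, on chromosome 18 (60803848 to 60812652, plus strand), was the most abundant of the 7 genes in every group, also per length. It had 87.3, 96.4 and 121 CPM in inhibitor libraries, 34.2, 42.1 and 38.0 CPM in stimulated libraries, and 649.6, 893 and 505 CPM in unstimulated libraries. The 3 groups did not overlap: stimulated libraries were lowest, inhibitor libraries stood between, and every unstimulated library was higher than any cultured one. Per kilobase of annotated exons, Cd74 averaged 60.4 ± 10.3 CPM in inhibitor, 22.7 ± 2.36 in stimulated and 406 ± 117 in unstimulated libraries (SD, n = 3 each).

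The I-A and I-E chain genes came next in unstimulated libraries. H2-Aa had 28.2, 32.1 and 43.4 CPM in inhibitor libraries, 9.97, 14.0 and 13.0 CPM in stimulated libraries, and 237, 324 and 175 CPM in unstimulated libraries. H2-Eb1 had 32.1, 35.5 and 45.4 CPM in inhibitor libraries, 10.4, 13.6 and 16.5 CPM in stimulated libraries, and 191, 245 and 145 CPM in unstimulated libraries. Both genes thus repeated the order of Cd74, with no overlap of groups. H2-Ab1, whose product pairs with that of H2-Aa, had 18.3, 19.1 and 24.4 CPM in inhibitor libraries, 26.6, 23.1 and 25.0 CPM in stimulated libraries, and 211, 299 and 165 CPM in unstimulated libraries. Its inhibitor and stimulated libraries overlapped, and only the unstimulated libraries stood apart.

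The H2-M chain genes differed from each other. H2-DMa had 25.4, 23.8 and 23.8 CPM with the inhibitor, 18.9, 19.1 and 19.5 CPM in stimulated libraries, and 32.8, 39.8 and 27.1 CPM in unstimulated libraries, a narrow range without overlap of the groups. H2-DMb1 had 1.14, 1.11 and 1.25 CPM with the inhibitor, 1.63, 1.95 and 2.14 CPM in stimulated libraries, and 15.7, 19.5 and 9.61 CPM in unstimulated libraries. For H2-DMb1 the inhibitor libraries were the lowest of the 9. Its neighbour H2-DMb2 is a close copy, and the split of reads between them is uncertain. Ciita had 9.14, 10.0 and 10.2 CPM in inhibitor libraries, 1.77, 2.23 and 2.90 CPM in stimulated libraries, and 41.5, 77.8 and 32.1 CPM in unstimulated libraries, again with the stimulated group lowest and no overlap.

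**Figure D1:**
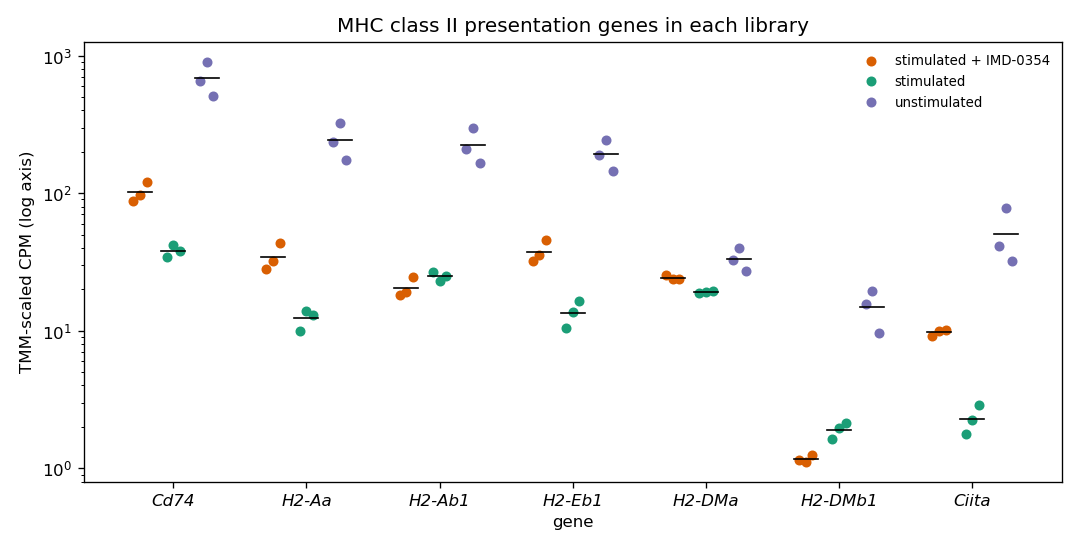
TMM-scaled CPM of each of the 7 genes (log axis), with a point for each library and a bar at the mean of the 3 libraries of a group. For Cd74, H2-Aa, H2-Eb1 and Ciita the inhibitor libraries lie between the stimulated and the unstimulated ones, while H2-DMa spans only 18.9 to 39.8 CPM over all 9 libraries.

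Per length, the order in unstimulated libraries was Cd74, H2-Eb1, H2-Ab1, H2-Aa, H2-DMa, H2-DMb1 and Ciita. H2-Eb1 (99.7 ± 25.7 CPM per kb), H2-Ab1 (87.7 ± 26.4) and H2-Aa (64.6 ± 19.7) had overlapping spreads, taken as the mean ± SD of 3 libraries, as had H2-DMa (9.64 ± 1.85) and H2-DMb1 (8.88 ± 2.97), and H2-DMb1 and Ciita (5.30 ± 2.53). In stimulated libraries H2-Ab1 was second at 9.69 ± 0.672 CPM per kb, followed by H2-Eb1 (6.93 ± 1.58), H2-DMa (5.56 ± 0.0882), H2-Aa (3.25 ± 0.557), H2-DMb1 (1.13 ± 0.155) and Ciita (0.241 ± 0.0594), of which neighbours H2-Eb1 and H2-DMa had overlapping spreads and the others did not. With the inhibitor H2-Eb1 was second again at 19.4 ± 3.54, ahead of H2-Aa (9.11 ± 2.07), H2-Ab1 (8.02 ± 1.29) and H2-DMa (7.06 ± 0.255), the last 3 with overlapping spreads. Ciita (1.03 ± 0.0598) and H2-DMb1 (0.694 ± 0.0442) came last there.

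The first comparison asked how cells stimulated for 48 hours differed from those taken straight from the spleen. All 7 genes fell, by between 1.73-fold (H2-DMa) and 21.9-fold (Ciita). Among all 18374 genes tested 34.0% were lower, 32.0% higher and 66.0% called in either direction at an edgeR adjusted p under 0.05, and the median log2 fold change was -3.85 over the 7 genes and -0.05 over all genes. The largest falls were those of Ciita (log2 fold change -4.45 ± 0.34, edgeR adjusted p = 1.9e-06), H2-Aa (-4.31 ± 0.26, adjusted p = 4.4e-07), Cd74 (-4.16 ± 0.22, adjusted p = 1.9e-07) and H2-Eb1 (-3.85 ± 0.24, adjusted p = 5.2e-07), where ± is an approximate SE. H2-Ab1 fell by 3.18 (adjusted p = 7.1e-07) and H2-DMb1 by 2.97 (adjusted p = 5.7e-06) on the log2 scale. H2-DMa fell by 0.79 (SE 0.13, adjusted p = 4.7e-04) and kept 57.6% of its unstimulated mean, against 4.56% for Ciita, 5.04% for H2-Aa and 12.8% for H2-DMb1.

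Markers of other cells fell in the same comparison. Of the 16 B cell markers 15 were lower, of 13 monocyte and macrophage markers 13, of 9 dendritic cell markers 7, of 6 neutrophil markers 6, of 6 NK cell markers 5 and of 5 plasma cell markers 4, while 2 of 10 T cell markers rose and 2 fell. The dendritic cell factor Batf3 rose (56.8 ± 2.55 CPM in stimulated and 2.24 ± 1.06 in unstimulated libraries). The B cell markers summed to 84.1 to 92.7 CPM in stimulated and 623 to 1733 CPM in unstimulated libraries, so that 7.93% of their mean was left, next to 7.76% for the 7 class II genes together. These shares lean on 1 abundant gene each: 6.68% was left of the B cell markers without Ighm and 9.71% of the class II genes without Cd74. Single class II genes kept 4.56% (Ciita) to 57.6% (H2-DMa). The monocyte and macrophage markers summed to 8.87 to 12.4 CPM in stimulated and 855 to 1789 CPM in unstimulated libraries, with 0.866% left. The dendritic cell markers, Batf3 included, summed to 65.3 to 70.8 and 122 to 185 CPM in the same order, with 45.6% left. Most of what was left was Batf3, at 56.8 of a mean sum of 68.3 CPM in stimulated libraries. Of the 9 dendritic cell markers, Xcr1, Clec9a, Cd209a and Siglech had 0 counts in all 3 stimulated libraries, as had the macrophage genes C1qa, C1qb, C1qc and Spic (3 counts over the group would be 0.0205 CPM). Other dendritic cell markers kept counts there. Zbtb46 was at 7.46 ± 0.212 CPM in stimulated and 10.3 ± 3.63 in unstimulated libraries and was not called. Itgax fell to 3.36 ± 0.538 CPM and Flt3 to 0.669 ± 0.194 CPM in stimulated libraries. All 16 B cell markers had counts in at least 1 stimulated library, with Ighm, the heavy chain of IgM, at 55.7 ± 4.52 CPM in stimulated and 625 ± 248 in unstimulated libraries, and Ms4a1, which encodes CD20, at 1.51 ± 0.371 and 49.1 ± 34.4 CPM in the same order. In these bulk libraries fewer cells of a type and less RNA per cell cannot be told apart, and the part of these cells in the fall of the class II genes was not tested.

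Within the unstimulated group all 7 class II genes were highest in library 2 and lowest in library 3, by 1.47-fold (H2-DMa) to 2.42-fold (Ciita). Library 2 was also the highest for all 16 B cell markers, 12 of 13 monocyte and macrophage markers and 8 of 9 dendritic cell markers. The same held for 5 of 5 plasma cell and 5 of 6 neutrophil markers, but for 1 of 6 NK cell and 0 of 10 T cell markers. Without unstimulated library 2 all 7 genes were still called lower in stimulated cells, H2-DMa by 0.64 and Cd74 by 3.92 on the log2 scale.

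The second comparison asked what IMD-0354 changed during the stimulation. Ciita, Cd74, H2-Aa and H2-Eb1 rose, 4 of the 7 genes, where 21.7% of all genes tested were higher, 22.8% lower and 44.5% either. Ciita rose by 2.09 ± 0.31 on the log2 scale (edgeR adjusted p = 5.1e-04), H2-Aa by 1.49 ± 0.24 (adjusted p = 7.1e-04), H2-Eb1 by 1.48 ± 0.22 (adjusted p = 4.9e-04) and Cd74 by 1.41 ± 0.20 (adjusted p = 3.2e-04). The other 3 were not called: H2-Ab1 at -0.27 ± 0.20 (adjusted p = 0.2871), H2-DMa at 0.34 ± 0.13 (adjusted p = 0.0609) and H2-DMb1 at -0.71 ± 0.27 (adjusted p = 0.0539). The calls of the H2-M genes were close to the threshold. Without unstimulated library 2 or 3, which changes the shared spread and also the genes that pass the filter (19139 and 19418), H2-DMa (0.34, adjusted p = 0.0218 and 0.0268) and H2-DMb1 (-0.71, adjusted p = 0.0348 and 0.0144) were both called. Without inhibitor library 1 the 4 genes were still called higher.

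**Figure D2:**
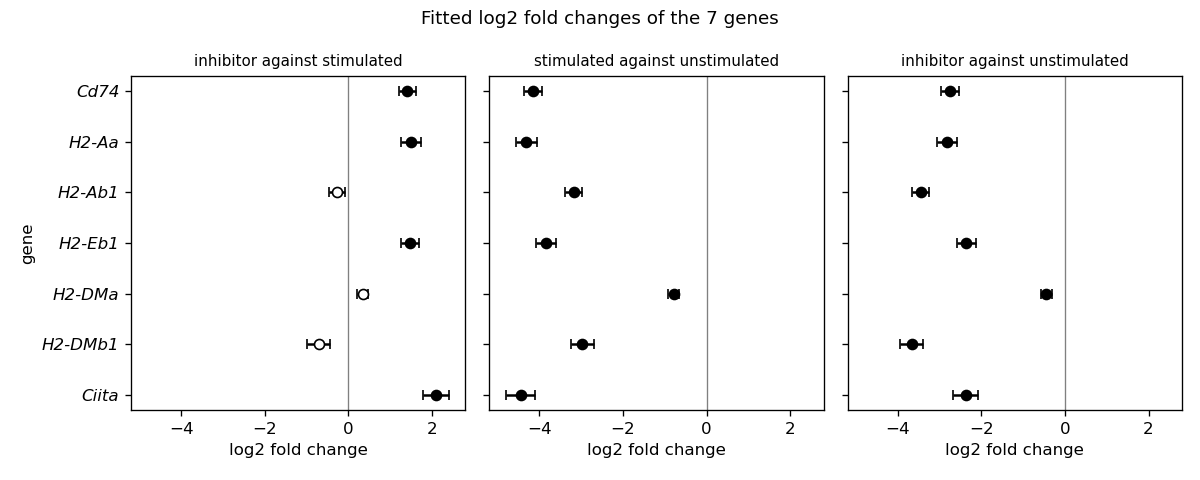
Fitted log2 fold changes of the 7 genes in the 3 comparisons, with horizontal bars for the approximate SE; filled points passed an edgeR adjusted p of 0.05 and open points did not. The left panel spreads from -0.71 for H2-DMb1 to 2.09 for Ciita, while all 7 genes are below 0 in the other panels.

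Some markers of other cells were higher beside this rise. Of the 16 B cell markers 7 were higher and 9 not called. Those that rose include Ighm (121 ± 1.85 CPM in inhibitor and 55.7 ± 4.52 in stimulated libraries) and Ms4a1 (5.15 ± 0.343 and 1.51 ± 0.371 CPM in the same order). Pax5 (0.18, adjusted p = 0.7781) and Cd22 (-0.06, adjusted p = 0.9094) were not called, and the estimates of Ebf1 (-1.30), Fcer2a (-1.31) and Cd79b (-0.50), also not called, were negative. The B cell sum was 159 to 164 CPM with the inhibitor and 84.1 to 92.7 CPM without it, of which the 15 markers other than Ighm averaged 41.1 ± 1.30 CPM with the inhibitor and 33.0 ± 0.731 CPM without it (SD, n = 3 each). The monocyte and macrophage markers were higher in 5 of 13, with a sum of 26.1 to 40.2 CPM in inhibitor and 8.87 to 12.4 CPM in stimulated libraries, for example Mpeg1 at 10.3 ± 3.91 CPM in inhibitor and 1.88 ± 0.303 in stimulated libraries. Lyz2 and Csf1r also rose, and Cd68 was not called (0.53, adjusted p = 0.1165). The list's median log2 fold change was 2.51, or 2.10 with the 4 genes at 0 in stimulated libraries set at their bound, and 8 of the 13 were not called. Some of these estimates rest on few counts, with C1qa at 3, 0 and 0 and C1qb at 12, 0 and 0 counts in inhibitor libraries. The sum was highest in inhibitor library 3 (40.2 CPM, against 26.1 and 26.2 in libraries 1 and 2). Of the 9 dendritic cell markers Flt3 and Zbtb46 rose, and Batf3 fell by 3.49. Of 5 plasma cell markers 3 were higher and 1 lower, of 6 NK cell markers 1 higher and 5 lower, of 6 neutrophil markers 0 were called, and of 10 T cell markers 2 were higher and 3 lower. The summed mean of the 7 class II genes was 2.05 times as high in inhibitor as in stimulated libraries. That of the B cell markers was 1.82 times as high (1.24 times without Ighm) and that of the monocyte and macrophage markers 2.82 times. The dendritic cell sum, which includes Batf3, went the other way, at 0.767 times. Batf3 alone averaged 5.04 of the mean sum of 52.4 CPM in inhibitor libraries and 56.8 of 68.3 CPM in stimulated libraries. It thus set the direction of this sum. The part of these cells in the rise was not tested.

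The third comparison set inhibitor-treated cells against unstimulated ones and shares its libraries with the other comparisons. All 7 genes were lower, where 26.1% of all genes tested were lower, 26.3% higher and 52.4% either. H2-DMb1 fell by 3.67 (adjusted p = 3.3e-06), H2-Ab1 by 3.45 (adjusted p = 8.6e-07), H2-Aa by 2.82 (adjusted p = 7.7e-06), Cd74 by 2.75 (adjusted p = 3.1e-06), Ciita by 2.37 (adjusted p = 1.1e-04) and H2-Eb1 by 2.36 (adjusted p = 1.5e-05) on the log2 scale with edgeR. H2-DMa fell by 0.45 (SE 0.13, edgeR adjusted p = 0.0169) and kept 73.2% of its unstimulated mean, against 19.4% for Ciita. Beside this, 15 of 16 B cell markers, 13 of 13 monocyte and macrophage, 7 of 9 dendritic cell, 6 of 6 neutrophil, 6 of 6 NK cell and 5 of 5 plasma cell markers were lower, and 2 of 10 T cell markers. The dendritic cell markers Zbtb46 (1.94, adjusted p = 5.0e-05) and Batf3 (1.18, adjusted p = 0.0171) were higher. Xcr1, Clec9a, Cd209a and Siglech averaged 0.0271 to 0.0868 CPM in inhibitor libraries and 5.50 to 10.8 CPM in unstimulated libraries, and the part of these cells was not tested. This call of H2-DMa was lost without inhibitor library 2 (-0.44, adjusted p = 0.0570), without inhibitor library 3 (-0.44, adjusted p = 0.0541) and without unstimulated library 2 (-0.30, adjusted p = 0.0501).

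The ratio of members within a library does not depend on how many reads the library gave to them as a whole. Per length, H2-Aa stayed at 0.129 to 0.161 times the level of Cd74 in all 9 libraries, with 0.150 ± 0.00831 in inhibitor, 0.143 ± 0.0121 in stimulated and 0.158 ± 0.00431 in unstimulated libraries. H2-Eb1 was at 0.320 ± 0.00388 times Cd74 in inhibitor libraries, 0.305 ± 0.0611 in stimulated and 0.247 ± 0.00848 in unstimulated libraries. H2-Ab1 did not keep its ratio: it was at 0.133 ± 0.00378 times Cd74 in inhibitor libraries, 0.432 ± 0.0747 in stimulated and 0.215 ± 0.00328 in unstimulated libraries, and the 3 groups did not overlap. The ratio of H2-Aa to its partner H2-Ab1 was accordingly 1.04, 1.14 and 1.20 in inhibitor libraries, 0.254, 0.410 and 0.353 in stimulated libraries and 0.757, 0.733 and 0.716 in unstimulated libraries. For the H2-M chains, H2-DMa was at 10.9, 10.5 and 9.29 times H2-DMb1 with the inhibitor, 5.66, 4.79 and 4.44 times in stimulated libraries and 1.02, 0.997 and 1.38 times in unstimulated libraries. Neither H2-Aa and H2-Ab1 nor H2-DMa and H2-DMb1 thus kept a fixed ratio of their mRNAs over the 3 groups. The H2-M ratio leaves out H2-DMb2, the close copy of H2-DMb1, and the split of reads between these copies is uncertain. Ciita was at 0.0172 ± 0.00203 times Cd74 in inhibitor, 0.0106 ± 0.00243 in stimulated and 0.0126 ± 0.00237 in unstimulated libraries, the last pair within their spread. These ratios are descriptions without a test.

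**Figure D3:**
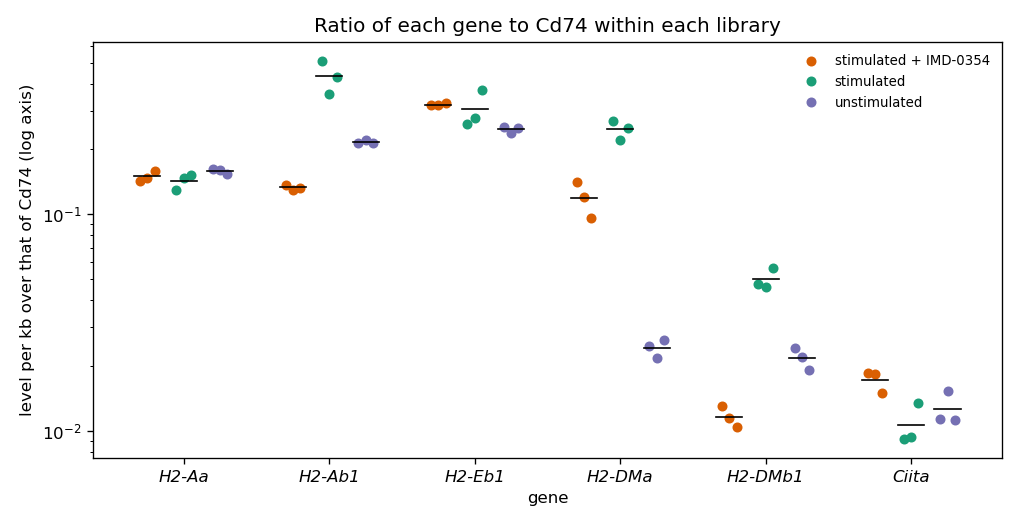
Level per kb of 6 genes divided by that of Cd74 in the same library (log axis), with a point for each library and a bar at the group mean. H2-Aa lies within 0.129 to 0.161 in all libraries, H2-Ab1 forms 3 separate groups, and H2-DMa is highest in stimulated libraries (0.221 to 0.269) and lowest in unstimulated ones (0.0217 to 0.0262).

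The annotation bears on what the gene counts hold. H2-Ab1 has an annotated noncoding transcript that begins 5520 bases before its first coding start, at 34257689. H2-DMa has 8 annotated transcripts, of which noncoding ones begin up to 3291 bases before the first coding start (34122832), inside Brd2 on the opposite strand, while 2 coding transcripts begin at 34135628 and 34135654. Brd2, a bromodomain protein gene, was at 307 ± 17.4 CPM in inhibitor, 279 ± 2.35 in stimulated and 319 ± 24.1 in unstimulated libraries. Ciita has coding starts from 10480059 to 10489783, which belong to promoters known for use in different cell types, and Dexi overlaps it on the opposite strand. Gene counts do not separate these transcripts, and their part in the levels of H2-Ab1, H2-DMa and Ciita was not tested. The class II genes are also among the most variable of the genome between mouse strains, and reads of castaneus alleles set against a C57BL/6 reference can be lost, which was not tested here.

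Other class II chains were measured for 5 genes. All 5 fell in stimulated against unstimulated cells (median log2 fold change -3.29, and -0.05 over all genes), where 34.0% of all genes tested fell. With the inhibitor 1 of 5 rose, H2-Ea-ps (1.55, adjusted p = 0.0052; 3.38 ± 1.52 CPM in inhibitor, 1.15 ± 0.191 in stimulated and 43.3 ± 13.9 in unstimulated libraries). H2-Ea-ps is the I-E alpha chain gene, which C57BL/6 mice carry as a defective allele, and the counts do not tell the parental alleles apart. H2-Ob and H2-Oa encode H2-O, an inhibitor of H2-M. H2-Ob was at 2.63 ± 0.475 CPM in inhibitor, 3.26 ± 0.311 in stimulated and 31.8 ± 3.64 in unstimulated libraries, and H2-Oa at 4.61 ± 0.667, 5.25 ± 0.869 and 8.98 ± 2.36 CPM in the same order. H2-Oa, like H2-DMa, thus kept more of its unstimulated mean (51.3% with the inhibitor and 58.5% in stimulated cells) than H2-Ob (8.26% and 10.2%). H2-DMb2 was at 4.03 ± 0.866 CPM in inhibitor, 3.75 ± 1.04 in stimulated and 17.8 ± 9.81 in unstimulated libraries (log2 fold change 0.11, adjusted p = 0.8438, with the inhibitor against without).

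Genes that process the invariant chain or turn class II over fell in 8 of 9 in stimulated against unstimulated cells (median -1.17), and with the inhibitor 5 rose and 1 fell against stimulated cells (median 0.40). Over all genes tested, 34.0% fell with stimulation, while 21.7% rose and 22.8% fell with the inhibitor. Ctss, the protease that makes the last cut of the invariant chain in B and dendritic cells, was at 53.3 ± 1.20 CPM in inhibitor, 23.3 ± 2.33 in stimulated and 141 ± 22.8 in unstimulated libraries, and rose by 1.20 with the inhibitor (edgeR adjusted p = 4.4e-05). The cathepsin gene Ctsb was level between the cultured groups, at 117 ± 3.15 CPM in inhibitor and 119.9 ± 9.77 in stimulated libraries (log2 fold change -0.03, adjusted p = 0.8249), against 234 ± 32.9 in unstimulated libraries. Ctsd rose by 0.40 with the inhibitor, and the invariant chain protease Sppl2a was not called (0.12). March8, a ubiquitin ligase that acts on class II among other surface proteins, fell by 1.87 with the inhibitor (edgeR adjusted p = 0.0086). It was at 1.84 ± 0.0534 CPM in inhibitor, 6.70 ± 0.845 in stimulated and 18.1 ± 14.4 in unstimulated libraries. Its relative March1, named after its values were seen, rose with the inhibitor by 1.44 (edgeR adjusted p = 0.0312). March1 was at 0.902 ± 0.367 CPM in inhibitor, 0.327 ± 0.0214 in stimulated and 33.6 ± 16.7 in unstimulated libraries.

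Genes for factors that bind class II promoters did not move as a group. Rfx5, the subunit of the RFX complex named here after its values were seen, was at 31.1 ± 2.84 CPM in inhibitor, 33.6 ± 1.41 in stimulated and 30.0 ± 3.00 in unstimulated libraries, and was called in no comparison (adjusted p = 0.2161 to 0.7168). Rfxank, another subunit of that complex and likewise named after its values were seen, fell with stimulation by 0.92 (adjusted p = 4.2e-05) and rose with the inhibitor by 0.52 (adjusted p = 0.0034). Of the 11 genes of the list, 2 rose and 6 fell in stimulated against unstimulated cells, and 5 rose and 2 fell with the inhibitor against without. The shares called in either direction over all genes tested were 66.0% and 44.5% in these comparisons. Nfyb, a subunit of NF-Y, averaged 30.6 ± 2.20 CPM in inhibitor, 74.2 ± 7.14 in stimulated and 30.6 ± 2.29 in unstimulated libraries. It rose with stimulation and fell with the inhibitor against stimulated cells. Nfyc, another NF-Y subunit, went the other way, lower by 0.81 with stimulation and higher by 0.46 with the inhibitor. The coactivator genes Crebbp and Ep300 fell with stimulation by 1.52 and 0.65, and Crebbp rose with the inhibitor by 0.89. Creb1 rose with the inhibitor by 0.95, to 212 ± 23.5 CPM against 109 ± 18.2 in stimulated libraries, while its relative Atf1 fell by 0.25.

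Among 14 genes that act upstream of Ciita, 5 rose and 9 fell with stimulation, and 5 rose and 5 fell with the inhibitor against without. Over all genes tested, 32.0% rose and 34.0% fell with stimulation, and 21.7% and 22.8% with the inhibitor. Ifng, which encodes interferon-gamma, the main inducer of Ciita outside of professional presenting cells, was at 125 ± 32.2 CPM in inhibitor, 260.3 ± 33.0 in stimulated and 12.0 ± 2.27 in unstimulated libraries. It was thus highest in the group where Ciita was lowest. Irf1, a factor of the interferon response, was at 341 ± 35.1 CPM in inhibitor, 89.8 ± 3.37 in stimulated and 189 ± 31.4 in unstimulated libraries and rose with the inhibitor by 1.93 (adjusted p = 3.1e-06). Socs1, a feedback inhibitor of that pathway, was at 44.8 ± 14.2 CPM in inhibitor, 141 ± 18.8 in stimulated and 26.6 ± 5.96 in unstimulated libraries. The kinase genes behind the receptor moved apart, with Jak1 higher by 0.40 and Jak2 lower by 0.59 with the inhibitor. Irf4 rose with stimulation by 4.15 and was not called with the inhibitor (-0.10, adjusted p = 0.7198). Spi1, which encodes the myeloid and B cell factor PU.1, averaged 2.20 ± 0.634 CPM in inhibitor, 0.496 ± 0.253 in stimulated and 44.3 ± 15.6 in unstimulated libraries. Prdm1, whose product represses Ciita in plasma cells, was at 3.06 ± 0.689 CPM in inhibitor, 12.7 ± 2.82 in stimulated and 27.9 ± 2.32 in unstimulated libraries. It fell by 2.05 with the inhibitor against stimulated cells and by 1.14 with stimulation, and was highest where Ciita was also highest. Bulk counts do not tell which cells made these mRNAs, and the part of these genes in the level of Ciita was not tested.

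Ligands that presenting cells show to T cells beside class II were higher with the inhibitor in 5 of 7 genes and lower in 0. The shares over all genes tested were 21.7% higher and 22.8% lower. Cd86 was at 11.4 ± 2.38 CPM in inhibitor, 1.86 ± 0.528 in stimulated and 14.9 ± 2.83 in unstimulated libraries; its inhibitor and unstimulated libraries overlapped and were not called apart (-0.39, adjusted p = 0.1907). Cd83, Cd274 (PD-L1) and Pdcd1lg2 (PD-L2), in contrast, rose with stimulation, Cd274 to 81.8 ± 1.42 CPM against 34.4 ± 1.61 in unstimulated libraries, and Cd274 rose further with the inhibitor, to 150.1 ± 7.33 CPM. Of the receptors of class II, Cd4 was at 323 ± 3.18 CPM in inhibitor, 184 ± 2.58 in stimulated and 274 ± 52.9 in unstimulated libraries. Lag3, an inhibitory receptor for class II, was at 186 ± 15.4 CPM in inhibitor, 227 ± 16.9 in stimulated and 6.87 ± 1.19 in unstimulated libraries. Mif, which encodes a ligand of CD74, was highest where Cd74 was lowest, at 107 ± 19.8 CPM in inhibitor, 421 ± 54.0 in stimulated and 29.2 ± 2.49 in unstimulated libraries.

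**Figure D4:**
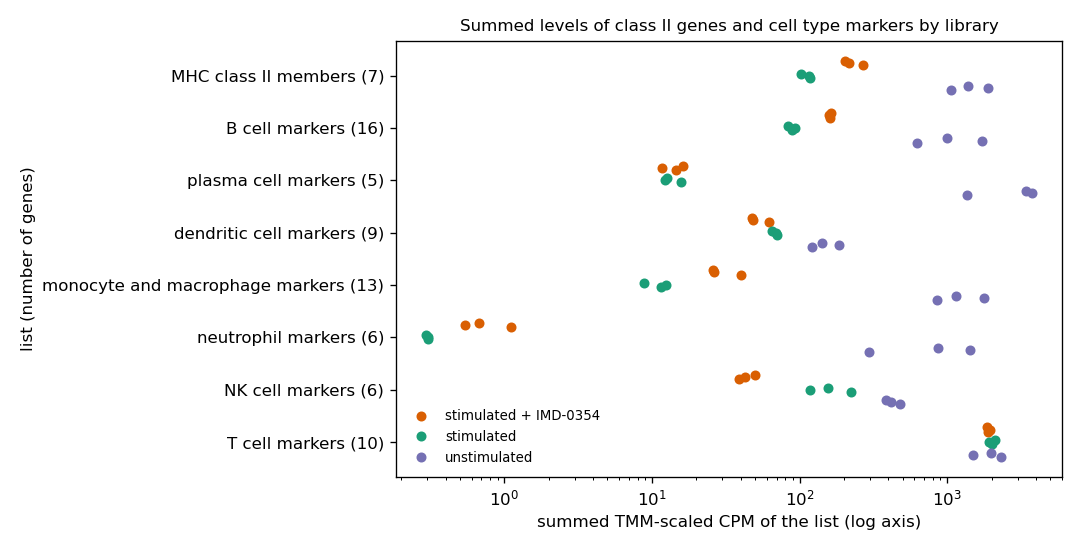
Summed TMM-scaled CPM of the 7 class II genes and of each marker list (log axis), with a point for each library. The class II genes (202 to 269 CPM in inhibitor, 103 to 117 in stimulated, 1059.5 to 1898 in unstimulated libraries) are lowest in stimulated libraries, as are the B cell markers (84.1 to 92.7), the neutrophil markers are at 0.296 to 1.11 CPM in cultured cells, and the T cell markers overlap between groups.

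The mean profile of the 7 genes was set against 9014 others (mean log2 CPM 3 or more), as the root mean square distance of centred log2 CPM over the 9 libraries. The nearest were Sgk3 and Ighm (0.16 each), B3gnt5 (0.24), Lrrk2 (0.25), Unc93b1 (0.27), Apoe (0.28), Itga4 (0.31) and Cxcr3 (0.32). Sgk3, a kinase gene, averaged 9.91 ± 1.23 CPM in inhibitor, 5.05 ± 0.324 in stimulated and 54.6 ± 11.5 in unstimulated libraries. Of the 7 genes, H2-Eb1 was nearest to their mean profile (0.30) and H2-DMa farthest (1.12). Sgk3 and Ighm thus lay nearer to this mean than any of the 7 genes did, and the mean stands for no single one of them. For Ciita alone the nearest others were Csf2rb (0.31), Kit (0.34), Bcl6 and Jun (0.40 each), App (0.42) and Nod1, Apoe and Smpdl3a (0.43 each), and H2-Eb1 (0.32), H2-Aa (0.34) and Cd74 (0.35) lay as near. H2-Ab1 (1.00), H2-DMb1 (1.15) and H2-DMa (1.48) lay farther from Ciita.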

How the data were processed

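Gene-level read counts were taken from the deposited table of 49671 genes and 9 libraries. Whole-number counts were made by the authors with STAR 2.7.1a and featureCounts on mm10, per the submitters' processing notes. The libraries were stranded and depleted of ribosomal RNA, per the labels' protocols. For the annotation release, the strand setting and pair counting: not given in the sources used here. Between 70.6% and 78.5% of counts from 1 to 10 were even. Whether each mate of a fragment was counted was not tested, and if so the floors (3 counts over a group) are too low. They cover counting error only. No 2 libraries of a group matched within sampling noise (chi-square over its degrees of freedom 30.0 to 112), so none was a copy of another. Each was counted as a sample, though this value cannot show that they came from different mice. Names, positions and exon lengths came from GENCODE M21 (49412 identifiers matched), and 0 columns were left unused.

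Genes were filtered with filterByExpr in edgeR 4.0.16 (R 4.3.3), which left 18374, all 7 members among them. TMM factors lay between 0.9253 and 1.122. All 9 libraries entered 1 quasi-likelihood fit (glmQLFit, glmQLFTest) with group as the only term and 6 residual degrees of freedom. The p-values were two-sided and adjusted after Benjamini and Hochberg over the 18374 genes (threshold 0.05), and "rose", "fell" and "called" mean that this was passed. The SE is the size of the log2 fold change over the root of F, an approximation. Levels per kb divide CPM by the length of merged exons. The members, the 6 pathway lists, the 7 marker lists and the alternatives were chosen with earlier results of these data known. From each list, up to 4 genes with the highest mean CPM and those called against the majority of the list could be named. The text shows some of these as examples, chosen with their values known. Others were named outside this rule after their values were seen, which holds for Rfx5, Rfxank, Nfyc, March1, Ebf1, Fcer2a, Cd79b, Xcr1, Clec9a, Cd209a, Siglech, C1qa, C1qb, C1qc, Spic, Brd2 and Dexi. Alternatives used limma 3.58.1 (voom) and DESeq2 1.42.0.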

Additional observations from a re-analysis of the deposited data

How the results depend on the processing

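Each result was recomputed under 18 alternatives. All directions of the 7 genes held in the 3 comparisons, and 362 of 375 values kept their side of the threshold. The 13 others were those of H2-DMa and H2-DMb1. With the inhibitor against stimulated cells, H2-DMa was called higher under 5 alternatives, including upper-quartile scaling (0.48, adjusted p = 0.0130). H2-DMb1 was called lower under 5 of 17, so that 1 gene, not 0, was called lower with DESeq2, without a filter on low counts and with only the groups compared, and 0 to 1 when a library was left out. At a mean of at least 10 CPM, which leaves 8948 genes and drops H2-DMb1, 6951 genes (3463 higher, 3488 lower) against 12126 were called in stimulated against unstimulated cells, and 5867 (2947 higher, 2920 lower) against 9626 with the inhibitor against unstimulated. Upper-quartile scaling moved the median of all genes to -0.27 in stimulated against unstimulated cells, against -0.05 with TMM, and to 0.16 with the inhibitor against stimulated, against 0.03. Same-numbered libraries did not deviate together throughout, with correlations of -0.083, -0.194 and -0.039 between inhibitor and unstimulated and 0.005, -0.013 and -0.015 between stimulated and unstimulated libraries. Between inhibitor and stimulated libraries they were 0.144, 0.107 and 0.078, against -0.105 to 0.026 for unlike numbers, and each library correlated best with its own number, a hint from the data and not from the design. With the replicate block, 7582 genes against 8182 were called with the inhibitor against stimulated, 11707 against 12126 in stimulated against unstimulated and 9125 against 9626 with the inhibitor against unstimulated, and no call of the 7 genes changed. H2-DMb1 had 42 to 61 counts per library with the inhibitor.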
